A study of Homo sapiens with 72 samples.

Results

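H3K27me3, the trimethylated form of lysine 27 on histone H3, was compared between untreated NALM6 and REH cells in 5 Cut&Tag libraries of the 54 samples with processed files. The libraries were replicates 2 and 3 of NALM6 and replicates 1, 2 and 3 of REH, chosen by cell line, mark and treatment. NALM6 replicate 1 was left out because its signal was deposited on another scale. Both are human acute lymphocytic leukemia lines of the precursor B type. REH carries the ETV6-RUNX1 fusion and NALM6 belongs to the DUX4-rearranged type, so each line stands for 1 leukemia and not for a subtype. Both lines grew in the same RPMI medium with serum. The sample labels list the 5 libraries as having had no treatment, although a protocol field that is shared by all samples names an overnight dose of 1 nM bryostatin. In Cut&Tag an antibody against a histone mark guides a transposase, which inserts sequencing adapters into nearby chromatin. The labels do not say whether replicates came from separate cultures, so the p-values below measure the spread between these libraries, which may be technical.

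H3K27me3 is written by the polycomb repressive complex PRC2, whose catalytic subunit is EZH2, and is read by the CBX subunits of PRC1. It is found over silent developmental genes, often as wide domains, and usually at CpG-rich promoters. H3K4me3 marks the start sites of genes that are active or poised, and some promoters carry both marks. In B cell development, polycomb complexes hold genes of other lineages and of other stages silent.

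The 6 promoters below, chosen after their values were seen, are examples in which the marks were exchanged between the lines. At RXRA, CRIP1 and NOTCH1 the 250 bases before the start lay wholly within H3K27me3 peaks in both NALM6 libraries and in none of the 3 REH libraries, and wholly within H3K4me3 peaks in all 3 REH libraries and in none of the 2 NALM6 libraries. At IRF4, TAGLN2 and PTGER2 the arrangement was the opposite, again over all 250 bases in every library. The sequences are those of RefSeq (GRCh38.p14), 5′ to 3′ on the strand of the gene, with each CG dinucleotide, the base pair step that defines CpG islands and reads the same on both strands, in capitals. RXRA lies on the plus strand at chr9:134326205-134326454, CRIP1 on the plus strand at chr14:105486636-105486885 and NOTCH1 on the minus strand at chr9:136546049-136546298. IRF4 lies on the plus strand at chr6:391502-391751, TAGLN2 on the minus strand at chr1:159925508-159925757 and PTGER2 on the plus strand at chr14:52314062-52314311.
RXRA: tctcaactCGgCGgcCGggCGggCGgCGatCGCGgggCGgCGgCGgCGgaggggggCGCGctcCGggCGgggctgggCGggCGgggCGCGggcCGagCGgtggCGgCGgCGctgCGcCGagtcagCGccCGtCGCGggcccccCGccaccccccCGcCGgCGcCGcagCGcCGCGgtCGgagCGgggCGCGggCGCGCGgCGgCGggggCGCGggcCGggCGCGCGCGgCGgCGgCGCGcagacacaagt
CRIP1: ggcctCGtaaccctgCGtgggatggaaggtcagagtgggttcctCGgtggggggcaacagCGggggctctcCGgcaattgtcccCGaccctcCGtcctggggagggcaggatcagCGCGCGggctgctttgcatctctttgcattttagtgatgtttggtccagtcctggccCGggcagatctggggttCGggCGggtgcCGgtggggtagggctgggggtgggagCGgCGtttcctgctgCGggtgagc
NOTCH1: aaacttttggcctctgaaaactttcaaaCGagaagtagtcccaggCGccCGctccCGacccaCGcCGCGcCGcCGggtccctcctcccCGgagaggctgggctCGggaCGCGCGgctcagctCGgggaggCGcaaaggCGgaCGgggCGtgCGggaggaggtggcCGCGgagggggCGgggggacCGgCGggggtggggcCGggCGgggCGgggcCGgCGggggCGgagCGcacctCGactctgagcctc
IRF4: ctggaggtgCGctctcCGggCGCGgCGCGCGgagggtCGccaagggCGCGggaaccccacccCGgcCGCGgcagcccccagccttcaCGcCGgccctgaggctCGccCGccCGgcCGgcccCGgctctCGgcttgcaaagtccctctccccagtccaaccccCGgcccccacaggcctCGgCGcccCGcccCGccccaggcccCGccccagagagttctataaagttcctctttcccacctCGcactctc
TAGLN2: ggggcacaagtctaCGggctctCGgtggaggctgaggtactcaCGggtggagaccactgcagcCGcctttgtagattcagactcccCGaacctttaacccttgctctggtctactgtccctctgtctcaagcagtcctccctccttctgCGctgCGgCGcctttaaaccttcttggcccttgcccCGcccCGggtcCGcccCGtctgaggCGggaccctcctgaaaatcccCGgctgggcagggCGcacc
PTGER2: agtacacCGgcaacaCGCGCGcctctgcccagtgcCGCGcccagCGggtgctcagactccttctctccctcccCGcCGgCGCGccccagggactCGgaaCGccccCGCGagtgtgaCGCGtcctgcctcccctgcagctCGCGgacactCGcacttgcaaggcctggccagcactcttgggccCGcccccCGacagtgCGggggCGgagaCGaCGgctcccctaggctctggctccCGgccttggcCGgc

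The RXRA stretch held 59 CG steps, a number reached by 0.011% of 27195 RefSeq promoters of the same length. NOTCH1 held 33, IRF4 and PTGER2 28 each, CRIP1 17 and TAGLN2 15. The median over all these promoters was 11, and 93.6% of them held at least 1.

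A promoter was counted as marked when a peak overlapped by at least 1 bp the stretch within 1 kb of any GENCODE 44 start of a protein-coding gene on chromosomes 1 to 22 and X. Of 19970 genes, 15.2% were marked in NALM6 replicate 2 and 9.77% in replicate 3. In REH 18.8%, 12.8% and 10.7% were marked in replicates 1, 2 and 3. The ranges of the lines overlap, with means of 12.5% ± 3.83 (SD, n = 2) in NALM6 and 14.1% ± 4.18 (SD, n = 3) in REH. An exact two-sided permutation test gave p = 0.8, where 2 against 3 libraries cannot go below 0.2.

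The libraries also differed in how much of the genome was called. Peaks covered 71.6 and 35.5 Mb in NALM6 and 231, 106 and 45.3 Mb in REH, and the depth was 19.13 and 19.17 M mapped reads in NALM6 and 38.95, 32.47 and 15.19 M in REH. The line of higher share changed when libraries were brought to the same called length, with 9.26% and 9.77% in NALM6 and 5.74%, 6.59% and 8.88% in REH (exact two-sided permutation p = 0.2, the smallest this design allows). It also changed without NALM6 replicate 3 and without REH replicate 1. The part of depth and of called length in the difference was not tested further. A promoter listed at 0 has no peak in that library, and the files hold no coverage outside peaks.

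Genes that were marked in one line only formed sets of similar size. A peak in both NALM6 and in no REH library was found at 814 genes, 4.08% of those tested. A peak in all 3 REH and in no NALM6 library was found at 887 genes, 4.44%. All 5 libraries marked 831 genes, no library marked 14718, and the rest fell in between. With equal called length these counts became 916 for NALM6 and 426 for REH, and with equal numbers of peaks 1011 and 542. Without NALM6 replicate 3 the NALM6 count was 1462. Genes with many starts have wider windows and so more room for a peak.

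The genes of one line only were ranked by their lowest signal among the libraries of that line, in RPKM over the promoter window. In NALM6 the first 8 were MAFA, CRIP1 with the overlapping ENSG00000257341, KLHL14, WFS1, HES3, TNNI2 and PRR35. MAFA, a pancreatic beta cell transcription factor, had 460 and 548 RPKM in the 2 NALM6 libraries and was listed at 0 in all 3 REH libraries. CRIP1, which encodes a small LIM domain protein, had 311 and 371 RPKM in NALM6. KLHL14, a BTB-kelch gene with high expression in B cells, had 279 and 309 RPKM. HES3, a transcriptional repressor of the Notch pathway, had 232 and 304 RPKM. WFS1, TNNI2 and PRR35 ranged from 225 to 273 RPKM, but TNNI2 was not of NALM6 only with windows of 2.5 kb. CRIP1 and KLHL14 carried H3K4me3 in all 3 REH libraries and in no NALM6 library.

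In REH the strongest line-only promoters were FHDC1, PROK2, BMP6, SHISA7, CREG2, GRIN3B and the overlapping pair INS and INS-IGF2. FHDC1, a formin gene, had 290, 226 and 548 RPKM and PROK2, a secreted prokineticin, had 187, 301 and 568 RPKM in REH replicates 1 to 3. BMP6, a bone morphogenetic protein, had 169, 188 and 347 RPKM. SHISA7 and CREG2 ranged from 141 to 417 RPKM. The insulin gene INS had 133, 172 and 245 RPKM. All were listed at 0 in both NALM6 libraries, but INS and INS-IGF2 lost the pattern of REH only with windows of 2.5 kb. Replicate 3, the REH library of least called length, had the highest value at each of these 8 genes, and BMP6 also carried H3K4me3 in all 3 REH libraries.

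**Figure D1:**
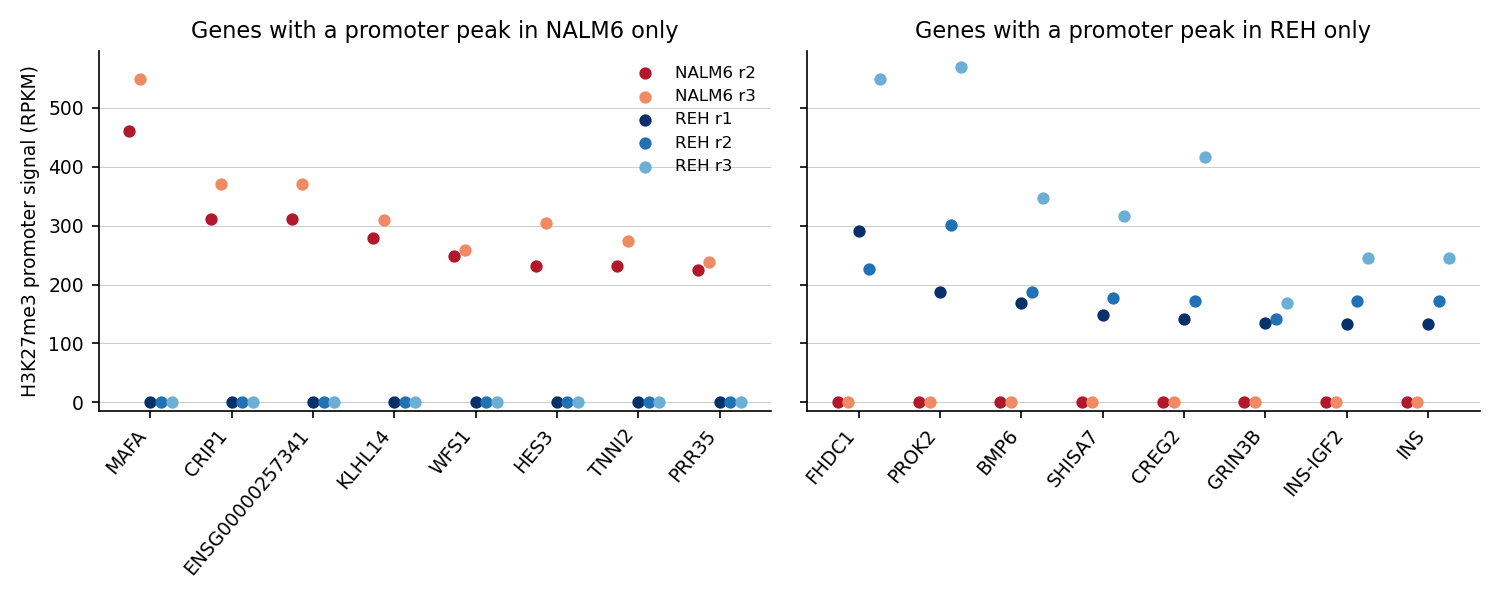
Points give the H3K27me3 promoter signal in RPKM for the 8 genes of NALM6 only (left) and of REH only (right) with the highest lowest value among their libraries, with 1 point for each library. Values of 0 mean that no peak was called, and the marked line lies above 130 RPKM at every gene shown.

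The line-only genes were then looked up in libraries that had played no part in choosing them. In bryostatin-treated cells, 812 of the 814 NALM6-only genes (99.8%) were marked in NALM6 replicate 2 and 789 (96.9%) in replicate 3, against 1, 6 and 24 genes (0.123%, 0.737% and 2.95%) in REH replicates 1 to 3. Of the 887 REH-only genes 813, 880 and 887 (91.7%, 99.2% and 100%) were marked in the treated REH libraries, against 169 and 201 (19.1% and 22.7%) in the treated NALM6 libraries. Over all genes the shares were 19.5% and 24.3% in treated NALM6 and 11.3%, 15.4% and 17.2% in treated REH.

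The full line-only pattern, a peak in each library of one line and none of the other, was seen again in treated cells at 761 NALM6-only genes (93.5%), where 7.96% of all genes had it. It was seen again at 545 REH-only genes (61.4%), where 3.65% of all genes had it. No gene of either set had the opposite pattern. Treated NALM6 replicate 3 was shallow, with 6.858 M mapped reads and a median peak of 380 bp. Without that library the pattern held at 784 NALM6-only genes (96.3%) and at 650 REH-only genes (73.3%), against 10.3% and 4.34% of all genes.

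H3K4me3 at the NALM6-only genes was more frequent in every REH than in either NALM6 library. There H3K4me3 peaks were found at 27.6% and 33.4% in NALM6 and at 53.3%, 35.5% and 41.8% in REH. Over all genes H3K4me3 peaks were at 51.5% and 54% in the NALM6 libraries and at 58.4%, 42.4% and 49.5% in those of REH. The REH-only genes had H3K4me3 at 16.1% and 17.2% in the NALM6 libraries and at 25.9%, 10.9% and 14.8% in the REH libraries, where the ranges of the lines overlapped. No library carried H3K4me3 at 370 NALM6-only genes (45.5%) and at 630 REH-only genes (71%), against 40.2% of all genes. H3K4me2 peaks were found at 37.1% and 42.3% of the NALM6-only genes in NALM6 and at 64.3%, 59.3% and 59% in REH, against 42.3% and 47.2% in NALM6 and 61.2%, 56% and 55.2% in REH over all genes. At the REH-only genes H3K4me2 was at 16.6% and 17.1% in NALM6 and at 33.5%, 29.7% and 29.8% in REH, so that REH was higher in all these groups.

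A full exchange of marks was seen at 85 NALM6-only genes (10.4%), which had H3K4me3 in all 3 REH and in no NALM6 library, a pattern held by 1.59% of all genes. The reverse exchange was seen at 21 REH-only genes (2.37%), where 0.996% of all genes had H3K4me3 in both NALM6 and no REH library. H3K4me3 on the same side as H3K27me3 was found at 8 NALM6-only genes (0.983%) and at 21 REH-only genes (2.37%).

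The exchanged NALM6-only genes included receptors and signal carriers. RXRA, the nuclear receptor that pairs with the retinoic acid and vitamin D receptors, had 198 and 209 RPKM of H3K27me3 in NALM6 and 63.7, 72.3 and 64.8 RPKM of H3K4me3 in REH. NOTCH1, a receptor of cell fate decisions in lymphocytes, had 67.9 and 68.2 RPKM of H3K27me3 in NALM6 and 88.6, 97.5 and 103 RPKM of H3K4me3 in REH. CRIP1 had 387, 482 and 401 RPKM of H3K4me3 in REH. In these 3 genes neither mark had a peak in the line that carried the other. SMO, the hedgehog signal transducer, had 32.9 and 45.6 RPKM of H3K27me3 and SMAD3, which carries TGF-beta signals, had 57.5 and 44.4 RPKM. The kinase gene SRC, the small GTPase gene RHOB, the cholesterol exporter ABCA1 and CD70, a ligand of the TNF family, were of the same kind.

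Among the 21 exchanged REH-only genes was IRF4, a transcription factor needed for the transition of pre-B cells and for plasma cells. IRF4 had 127, 147 and 260 RPKM of H3K27me3 in REH and 1310 and 1132 RPKM of H3K4me3 in NALM6. TAGLN2, an actin-binding protein, had 72.1, 71.7 and 47.9 RPKM of H3K27me3 in REH and 621 and 578 RPKM of H3K4me3 in NALM6. PTGER2, a receptor of prostaglandin E2, had 60.1, 81.4 and 95.5 RPKM of H3K27me3 and 701 and 706 RPKM of H3K4me3. These genes were chosen for this exchange, so that the separation of the lines is a description. DUSP5, a phosphatase of MAP kinases, and PTPN7, a phosphatase of blood cells, were also among them, although PTPN7 had only 1.88 RPKM in REH replicate 3 against 32.1 and 33.1 RPKM in the others. With windows of 2.5 kb PTPN7 was not of REH only.

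The level of H3K4me3 was compared where it could be measured in every library. H3K4me3 had a peak in all 5 libraries at 180 of the NALM6-only genes. By limma with Benjamini-Hochberg adjustment over the 8064 genes with H3K4me3 in all 5 libraries, it was called higher in REH at 114 of these 180 (63.3%) and higher in NALM6 at 6 (3.33%), with a median log2 difference of -0.67 (NALM6 minus REH). Over all genes tested 12.1% were called higher in REH and 8.47% higher in NALM6, with a median of 0.04. Of the 72 REH-only genes tested, 25 (34.7%) were called higher in NALM6 and 9 (12.5%) higher in REH, with a median log2 difference of 0.22. Leaving out NALM6 replicate 2 or 3 brought the count of 25 to 16, and leaving out NALM6 replicate 2 brought the count of 6 to 2. With 1 NALM6 library left, here and wherever a NALM6 library is left out of a limma fit, the spread comes from the REH libraries alone and the lone library is assumed to vary like them. Leaving out 1 library in turn gave 83 to 118 for the count of 114.

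The CG content of the classes was also counted. In the 300 bases from 250 before to 50 after the annotated gene start, read from hg38 for every gene, the median number of CG steps was 16 for NALM6-only genes, 13 for REH-only genes, 21 for genes marked in all 5 libraries and 18 for all genes. It was 24 at the 85 and 25 at the 21 genes with exchanged marks. Among line-only genes with H3K4me3 in no library it was 8 in NALM6 and 10 in REH. Only the outermost start of each gene was counted here, whereas a peak at any of its starts marked the gene. At RXRA the start counted (chr9:134317098) is not the one whose sequence is shown.

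The gene lists were read against the shares over all genes, 4.08% for NALM6 only and 4.44% for REH only. HOX cluster genes, which set body position in the embryo, were marked in NALM6 only at 4 of 39 (10.3%) and in REH only at 2 (5.13%). The 4 were HOXB13, HOXC4, HOXC5 and HOXD12, and the 2 were HOXA11 and HOXC13. HOXC4 had 99.4 and 88.5 RPKM in NALM6 and carried H3K4me3 in all 3 REH libraries. HOXC13, in the same cluster, had 74.7, 67.7 and 99.7 RPKM in REH. HOXC4 and HOXC13 lost the pattern of one line with windows of 2.5 kb, and HOXA11 lost it with equal called length. No NALM6 library carried H3K4me3 at any HOX gene, whereas 10, 7 and 7 of the 39 HOX genes carried it in REH. Over all genes H3K4me3 was found at 51.5% and 54% in the libraries of NALM6 and at 58.4%, 42.4% and 49.5% in those of REH.

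Homeobox and other developmental factor families were marked in NALM6 only at 16 of 226 genes (7.08%) and in REH only at 14 (6.19%). PITX1, a hindlimb and pituitary factor, had 136 and 132 RPKM in NALM6 and carried H3K4me3 in all 3 REH libraries. FOXJ1, the regulator of motile cilia, had 115 and 109 RPKM in NALM6. PRRX2 and OLIG3, factors of limb mesenchyme and of the neural tube, were of REH only with 127, 160 and 195 RPKM and with 111, 109 and 147 RPKM. OLIG3 lost this pattern with windows of 2.5 kb.

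Secreted WNT, BMP, FGF and hedgehog ligands were marked in REH only at 8 of 78 (10.3%) and in NALM6 only at 2 (2.56%). The 8 were BMP6, GDF7, FGF3, FGF4, FGF10, FGF13, FGF20 and WNT7A, and the 2 were FGF23 and INHBA. GDF7, a dorsal neural tube signal, had 93.9, 141 and 229 RPKM in REH, and FGF3 had 81.8, 108 and 128 RPKM. WNT7A had 39.6 and 40.1 RPKM in REH replicates 1 and 2 but 4.71 RPKM in replicate 3. INHBA, a subunit of activin, had 29.8 and 17.2 RPKM in NALM6. With equal called length FGF4, FGF10, FGF13, FGF20 and WNT7A no longer had the pattern of REH only.

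Potassium and calcium channel genes were of REH only at 16 of 121 (13.2%) and of NALM6 only at 8 (6.61%). KCNF1 had 99.9, 78.6 and 139 RPKM in REH, and KCNJ2, an inward rectifier, had 146 and 105 RPKM in NALM6 with H3K4me3 in all 3 REH libraries. Olfactory receptor genes, silent outside the nose, were of REH only at 30 of 415 (7.23%) and of NALM6 only at 1 (0.241%), which was OR13J1. They had a peak at 154, 54 and 41 of the 415 genes in REH and at 14 and 4 in NALM6, where 18.8%, 12.8% and 10.7% of all genes had one in REH and 15.2% and 9.77% in NALM6. The called lengths of these libraries were 231, 106 and 45.3 Mb in REH and 71.6 and 35.5 Mb in NALM6, and their part in the counts was not tested. Reads may be split among near-identical receptor copies. ZNF genes were of NALM6 only at 7 of 508 (1.38%) and of REH only at 6 (1.18%). Clustered protocadherins gave 2 of 53 in REH only (3.77%) and none in NALM6 only. No ribosomal protein gene of 84, no MHC class II gene of 14 and no CDK inhibitor or cyclin D gene of 10 was of one line only.

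**Figure D2:**
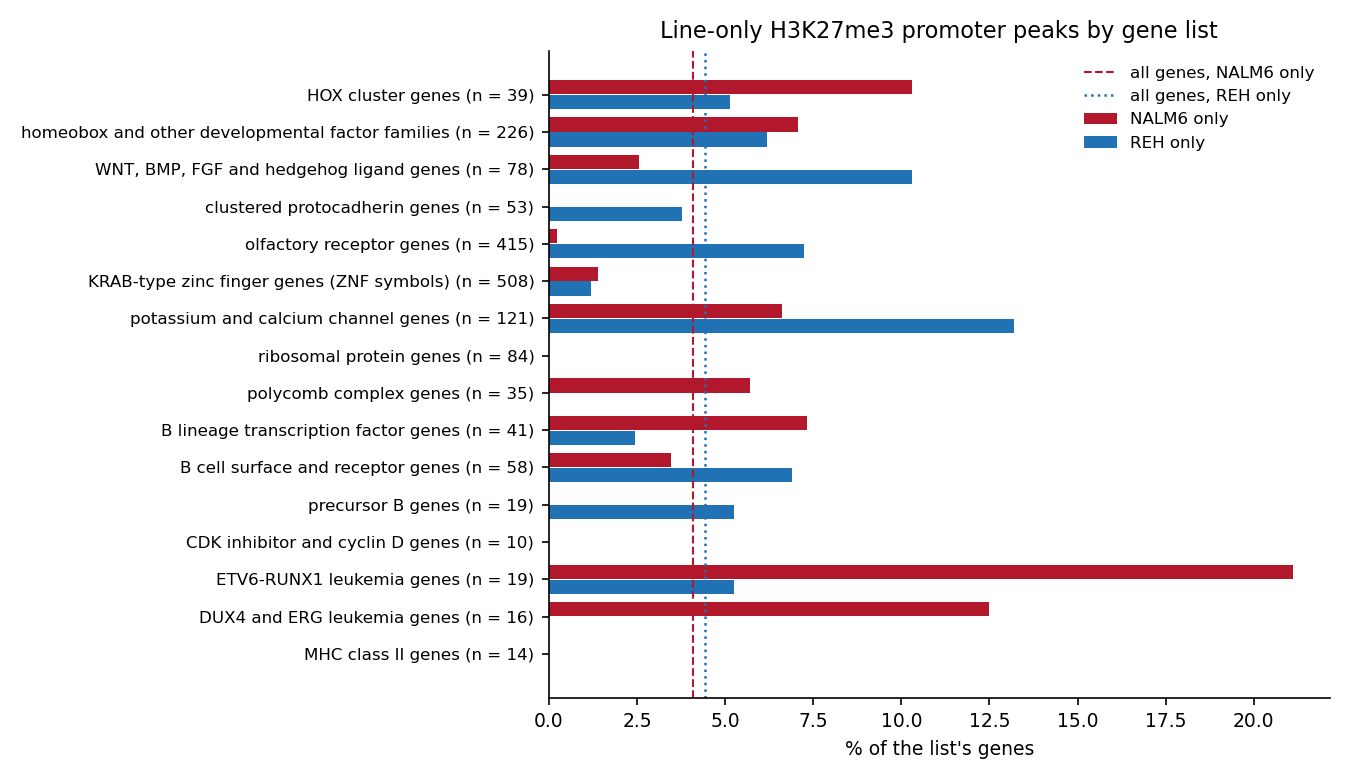
Bars give, for 16 gene lists (cell type marker lists are not drawn), the percent of genes with a promoter peak in both NALM6 and no REH libraries (red) and in all 3 REH and no NALM6 libraries (blue), with lines at the same shares over all genes (4.08% and 4.44%). The longest bars are ETV6-RUNX1 leukemia genes in NALM6 only (21.1%) and potassium and calcium channel genes in REH only (13.2%).

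Among polycomb complex genes, 2 of 35 found were of NALM6 only (5.71%) and none of REH only. These were PCGF2, a subunit of PRC1, with 69.7 and 64.9 RPKM, and EPOP, an accessory protein of PRC2, with 50.9 and 73.6 RPKM in NALM6. Both carried H3K4me3 in all 5 libraries, at a lower level in NALM6 (log2 differences -1.54 and -0.70, adjusted p = 0.000186 and 0.00518 by limma). CBX8, a reader subunit, had 269 and 306 RPKM in NALM6 and 29.8, 36.7 and 0.609 RPKM in REH, so that the groups did not overlap. Its log2 difference of 4.84 ± 1.83 (SE) did not pass limma (adjusted p = 0.0618). CBX6 had 77.4 and 65.9 RPKM in NALM6 and 16, 18 and 0 RPKM in REH. BMI1 had 12 and 0 RPKM in NALM6 and 13.1, 15.6 and 19.9 RPKM in REH.

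B lineage transcription factors were of NALM6 only at 3 of 41 (7.32%) and of REH only at 1 (2.44%). The 3 were MYC, ID2 and BATF, and the 1 was IRF4. ID2, an inhibitor of E proteins, had 96.5 and 92.9 RPKM of H3K27me3 in NALM6, and its H3K4me3 was found only in REH replicate 1, but with windows of 2.5 kb it was not of NALM6 only. BATF, an AP-1 factor, had 105 RPKM in each NALM6 library. MYC had 72.7 and 65.2 RPKM of H3K27me3 in NALM6 together with 947 and 835 RPKM of H3K4me3, so its windows held both marks there. IKZF3, a lymphoid zinc finger factor, had 17.1, 0 and 23.9 RPKM of H3K27me3 in REH, none in NALM6, and H3K4me3 in both NALM6 libraries and in no REH library. RUNX2 was marked in all libraries and was higher in NALM6, with 71.6 and 64.9 against 32.4, 30.4 and 25.8 RPKM (log2 difference 1.02 ± 0.28 SE, adjusted p = 0.0215 by limma). TCF7, KLF2 and POU2F2, marked in all libraries, did not pass (adjusted p = 0.228, 0.134 and 0.503 by limma).

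B cell surface and receptor genes were of NALM6 only at 2 of 58 (3.45%) and of REH only at 4 (6.9%). CD34, the antigen of blood progenitors, had 51.2 and 32.5 RPKM in NALM6, and CD44, an adhesion receptor, had 4.83 and 4.68 RPKM. These values are averages over windows of unlike width. In NALM6 4279 and 2278 of 6280 bp were called at CD34, and 1956 and 1986 of 22537 bp at CD44. The 4 were FCRL1, CR1, KIT and CD9. CD44, FCRL1 and CD9 lost the pattern of one line with equal called length, and CD44, FCRL1 and CR1 with equal numbers of peaks. CR1, a complement receptor, had 96.4, 86.7 and 137 RPKM in REH, and KIT, the receptor of stem cell factor, had 17.1, 23.5 and 34.3 RPKM. CD37, a tetraspanin of B cells, had 83.1 and 118 RPKM in NALM6 against 3.38, 9.05 and 0 RPKM in REH. SIGLEC6 was higher in REH with 145, 134 and 281 RPKM against 90.3 and 79.5 RPKM (log2 difference -1.25 ± 0.25 SE, adjusted p = 0.0068 by limma). Of 19 precursor B genes 1 was of REH only (5.26%). It was LYN, a kinase of B cell receptor signalling, with 32.2, 47.8 and 69.5 RPKM.

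Genes known for high expression in ETV6-RUNX1 leukemia were of NALM6 only at 4 of 19 found (21.1%) and of REH only at 1 (5.26%). The 4 were KCNN1, BIRC7, EPOR and ARHGEF4. BIRC7, an inhibitor of apoptosis, had 95.5 and 95.9 RPKM of H3K27me3 in NALM6 and 345, 321 and 210 RPKM of H3K4me3 in REH. EPOR, the erythropoietin receptor, had 35.7 and 30 RPKM of H3K27me3 in NALM6 and 200, 178 and 148 RPKM of H3K4me3 in REH. KCNN1, a calcium-activated potassium channel, had 127 and 121 RPKM of H3K27me3 in NALM6, and its H3K4me3 was 25.9 and 56.2 RPKM in NALM6 against 556, 603 and 712 RPKM in REH (log2 difference -4.07 ± 0.29 SE, adjusted p = 6.79e-05 by limma). DSC3, a desmosomal cadherin, was the 1 of REH only, with 58.5, 54.3 and 114 RPKM. H3K4me3 was found at 4 and 5 of the 19 genes in NALM6 and at 15, 12 and 15 in REH, where over all genes its share was 51.5% and 54% in NALM6 and 58.4%, 42.4% and 49.5% in REH. Of the 16 genes of the DUX4 and ERG leukemia list, 2 were of NALM6 only (12.5%) and none of REH only. These 2, DDIT4L and CYP46A1, had 101 and 90.8 RPKM and 34.4 and 22.4 RPKM in NALM6. On this list H3K4me3 was found at 7 and 7 of the 16 genes in NALM6 and at 9, 6 and 7 in REH. At CYP46A1 the level of H3K4me3 was lower in NALM6 (log2 difference -1.23 ± 0.13 SE, adjusted p = 0.000357 by limma).

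The label was checked on defining markers of B cells and of other cell types. The precursor B list had H3K4me3 at 18 and 19 of its 19 genes in NALM6 and at 18, 14 and 16 in REH. Of 14 B lineage markers, H3K4me3 was found at 13 and 14 in NALM6 and at 13, 12 and 12 in REH. Of 11 T cell markers it was found at 3 and 3 and at 4, 1 and 2, of 11 myeloid markers at 0 and 0 and at 2, 0 and 0, and of 7 erythroid and 6 epithelial markers at none in any library. Among the T cell markers CD2, CD5, CD28, CD3D, CD3E and CD3G had no H3K4me3 peak in any library. CD247, CD8A, ZAP70, GATA3 and BCL11B had one in at least 1 library. Among the myeloid markers CSF1R and ITGAM had one in REH replicate 1, and CD14, MPO, LYZ and the others had none. H3K27me3 was found at no more than 1 B lineage marker in any library and at 3 or 4 T cell markers in each. Each library had it at 2 or 3 of the myeloid markers. The other lists did not show it throughout. NALM6 replicate 3 lacked it at every erythroid marker, and REH replicates 2 and 3 lacked it at every epithelial marker. Elsewhere it marked 1 to 3 erythroid and 2 or 3 epithelial markers. For comparison, the share of all genes with a promoter peak ran from 9.77% (NALM6 replicate 3) to 18.8% (REH replicate 1).

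At the 831 genes marked in all 5 libraries, the size of the promoter signal was compared with limma after centring each library on its median. With Benjamini-Hochberg adjustment over these genes at 0.05, signal was higher in NALM6 at 226 (27.2%) and higher in REH at 224 (27%), and the values of the lines did not overlap at 607. A value is the coverage within peaks over the whole window, so it counts both height and how much of the window was called. Without centring the median of all genes moved from -0.12 to 0.07 on the log2 scale and the counts were 225 and 152. With equal called length 507 genes were tested, and the counts were 123 and 131. With genes marked in at least 3 of 5 libraries, which admits REH-only genes but no NALM6-only ones, they were 214 and 1145.

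Genes that were called and whose lines did not overlap were ranked by their log2 difference, which leaves out CBX8. NHERF2, a scaffold of ion transporters, had the largest excess in NALM6 with 386 and 348 RPKM against 6.45, 9.89 and 7.88 RPKM (log2 difference 5.34 ± 0.26 SE, adjusted p = 0.00022 by limma). RAP1GAP2, RTP5, KALRN, CPLX1 and SH3BP2 followed, with log2 differences of 4.44, 4.34, 4.34, 4.20 and 3.84. SH3BP2, an adaptor of SYK signalling, had 167 and 168 RPKM in NALM6 and 10.1 to 10.3 RPKM in REH. KALRN and RAP1GAP2 carried H3K4me3 in all 3 REH libraries and in no NALM6 library, whereas SH3BP2 carried it in both NALM6 libraries and in 1 REH library.

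In the same ranking of called genes, the excess in REH was largest at the glutamate receptor genes GRIK3 and GRIN1, at PROZ, PIP4K2C, the neuronal pentraxin NPTX1 and SERPINA3. GRIK3 had 45.6, 42.3 and 69.9 RPKM in REH and 0.338 and 1.05 RPKM in NALM6, where 44 and 154 bp of its window were called (log2 difference -6.62 ± 0.57 SE, adjusted p = 0.000343 by limma). GRIN1 had 16.6, 16.3 and 32.6 RPKM in REH against 0.732 and 0.41 RPKM, and NPTX1 had 102, 119 and 347 RPKM against 9.68 and 5.94 RPKM. Their log2 differences were -5.43 and -4.60, and that of PROZ was -5.37. In NALM6 216 and 171 bp of the GRIN1 window were called, 122 and 52 bp at PROZ and 1345 and 745 bp at NPTX1. PIP4K2C had 31.9 RPKM in NALM6 replicate 2 and 0.334 RPKM in replicate 3 (log2 difference -5.3 ± 1.64 SE, adjusted p = 0.0328 by limma), and the difference was -8.50 without NALM6 replicate 2 and -1.71 without NALM6 replicate 3. Its call was lost without any 1 REH library and with features in at least 3 of 5 libraries. SERPINA3 differed by -4.45, but by 0.04 when the maximum signal replaced the mean, and 193 and 73 bp of its window were called in NALM6.

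The called genes were looked up in treated libraries, which had no part in the calls. Of the 226 genes higher in NALM6, 190 were tested in treated libraries, and 183 (96.3%) were called higher in NALM6 and none higher in REH, with a median log2 difference of 2.15. Of the 224 higher in REH, 214 were tested, and 125 (58.4%) were called higher in REH and none higher in NALM6, with a median of -1.03. Over the 1140 genes tested in treated cells, 25.4% were higher in NALM6 and 25.3% higher in REH, with a median of 0.01. Without any 1 treated REH library the count of 125 fell to between 76 and 78, and without treated NALM6 replicate 2 or 3 it was 144 or 156, with 3 or 1 genes called the other way.

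Wide domains were made by joining peaks of a library closer than 3 kb and keeping joined stretches of at least 10 kb. There were 1831 and 914 of them in the NALM6 libraries and 6600, 2993 and 1256 in the REH libraries, with means of 1372 ± 648 (SD, n = 2) and 3616 ± 2726 (SD, n = 3) and an exact two-sided permutation p of 0.4. They covered 34.3 and 16.3 Mb in NALM6 and 169, 66.0 and 23.9 Mb in REH. With equal called length NALM6 had 1009 and 914 and REH had 1072, 1107 and 952 wide domains.

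Stretches shared by all libraries of a line gave 856 wide domains in NALM6 (15.3 Mb) and 1215 in REH (23.1 Mb). Of these, 305 of the NALM6 domains (35.6%) met no peak in any REH library and 394 of the REH domains (32.4%) met none in NALM6. The NALM6-only domains covered 5.17 Mb, and 152 of the 305 held a gene start. The REH-only domains covered 6.29 Mb, and 90 of the 394 held one. How many of all wide domains of each line held a gene start was not counted, so these numbers describe no trait of line-only domains. Without REH replicate 3 the REH-only count was 1475, without NALM6 replicate 2 it was 691, and without NALM6 replicate 3 the NALM6-only count was 763.

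The widest NALM6-only domain, 104840 bp at chr9:134313301-134418140 (hg38), held the starts of RXRA. Peaks covered 102130 and 101300 of its bases in NALM6 and 103990 and 91620 in treated NALM6, and none in any REH library, treated or not. A domain of 49780 bp on chromosome 2 held MYO7B, LIMS2 and GPR17, and one of 50500 bp on chromosome 8 held DENND3. The other 2 of the 5 widest, 61010 bp at chr16:85431491-85492500 and 48510 bp at chr9:136582291-136630800, held no protein-coding start.

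Of the 5 widest REH-only domains, the first and the third, of 50270 and 46140 bp at chr4:9222611-9272880 and chr4:9322921-9369060, lay over the USP17L deubiquitinase genes. These are tandem near-identical copies whose reads cannot be placed with certainty. Peaks covered 45310, 41030 and 32090 bases of the wider one in REH replicates 1 to 3. The other 3, of 48640, 45770 and 39020 bp on chromosomes 8, 9 and 1, held no protein-coding start.

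The domains of one line were looked up in treated cells. Treated peaks covered 97.1% and 59.3% of the bases of the 305 NALM6-only domains in NALM6 and 0.00465%, 0.15% and 0.465% in REH. They covered 91.1%, 91.3% and 94.2% of the bases of the 394 REH-only domains in REH and 8.36% and 2.02% in NALM6. A treated NALM6 peak touched 133 and 194 of the 394 REH-only domains in replicates 2 and 3, whereas a treated REH peak touched 1, 6 and 14 of the 305 NALM6-only domains. The called length in treated cells was 157 and 39.7 Mb in NALM6 and 89.9, 118 and 140 Mb in REH. NALM6 replicates 2 and 3 had 34994 and 78585 peaks when treated, against 21273 and 7209 untreated. The part of called length and peak number in these counts was not tested.

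At the 745 wide domains with signal in all 5 libraries, limma with Benjamini-Hochberg adjustment called 297 (39.9%) higher in NALM6 and 348 (46.7%) higher in REH. The values of the lines did not overlap at 684. The domains were defined by peaks of these same libraries, as stretches that were wide in every library of a line. The calls and the separation therefore restate that choice in part and are not an independent test. Without NALM6 replicate 3 more domains could be tested, and the counts were 483 and 567.

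Line-only genes lay on every chromosome tested. NALM6-only genes made up 1.63% of the genes of chromosome X and 8.05% of those of chromosome 22, the lowest and highest shares. REH-only genes ranged from 2.58% on chromosome 7 to 7.27% on chromosome 21. The number of gene copies in the lines was not part of the data used here, and its part in these shares was not tested.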

How the data were processed

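Reads were trimmed (Trim Galore) and mapped to hg38 (Bowtie2) by the authors, who scaled coverage to RPKM and ran SEACR separately on every library. Each deposited peak carries its total and its maximum signal, as coverage in RPKM. Replicate 1 of NALM6 and the Raji samples were not used in the comparisons. Mapped reads were read from the RPKM value of 1 read (largest deviation from a whole step 0.000196 in the 5 libraries). Promoters were windows of 1 kb either side of all GENCODE 44 starts. Values are the coverage in peaks averaged over all bases of the window, so a wide window with few called bases has a low value.

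Log2 values of features with a peak in all 5 libraries were centred on each library's median and tested between lines in R 4.3.3 with limma 3.58.1, using a trended eBayes step and a Benjamini-Hochberg threshold of 0.05. This was tested on simulated data. For values with 1 number per library, exact permutation tests (two-sided) were run. Python 3.11.15, scipy 1.17.1 and matplotlib 3.10.9 were used.

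The members, lists and tests were chosen with earlier results of these data known. The limma fits of H3K4me3 and of treated libraries, and those without each library there, were added after seeing the data, as were the genes whose sequences are shown. The genes named were the 8 of one line only with the highest lowest signal, the 6 of largest log2 difference among calls with separate groups, the 5 widest domains of one line only, members of each list (up to 12, otherwise the first 8 by signal), and genes with exchanged marks, which were added after seeing the data. The authors also compared groups with DESeq2, which was not used here. Alternatives were equal numbers of peaks, equal called length, other windows, gaps of 1 and 10 kb, widths of 20 kb, maximum signal, no centring, no trend, features in at least 3 of 5 libraries, the replicate block, NALM6 replicate 1 and leaving out each library.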

Additional observations from a re-analysis of the deposited data

Results flagged for a closer look

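NALM6 replicate 1, which was kept out of the comparisons for its other scale and entered only as an alternative, had a promoter peak at 413 genes. Of the 814 genes marked in NALM6 only it marked 144 (17.7%), and of the 887 genes marked in REH only it marked 1 (0.113%). It marked 212 of the 831 genes of all 5 libraries and 7 of the 14718 genes of none. This was looked at because the library lies outside the comparison and shows a signal on the side of its own line.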

How the results depend on the processing

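The difference in the share of marked promoters (NALM6 minus REH, -1.59 percentage points) changed sign with equal numbers of peaks (1.70) and with equal called length (2.44), and ranged from -4.305 without NALM6 replicate 2 to 1.12 without NALM6 replicate 3. It was also positive without REH replicate 1 (0.75), and it was -5.06 with NALM6 replicate 1 included. The difference in the number of wide domains (-2244) kept its sign in all alternatives but was -1170 with equal numbers of peaks and -82.2 with equal called length, where the libraries of the lines overlapped, and ranged from -3424 to -752 without 1 library.

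Of 127 named NALM6-only genes, 120 had the same pattern with equal numbers of peaks and 116 with equal called length, and of 76 named REH-only genes 46 and 32 had it. With NALM6 replicate 1 included it was 39 and 75. With windows of 2.5 kb it was 123 and 69, and PTPN7, OLIG3, TNNI2, INS and INS-IGF2 were among those that lost it.

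With NALM6 replicate 1 included, NALM6-only genes fell to 144 and NALM6-only wide domains to 2, since that library has few and short peaks. REH-only genes numbered 542 with equal numbers of peaks and 426 with equal called length. Gaps of 10 kb gave 467 NALM6-only and 718 REH-only domains, gaps of 1 kb gave 172 REH-only domains, and a width of 20 kb gave 70 and 80. Without 1 library, NALM6-only genes ranged from 815 to 1462, REH-only genes from 887 to 1268, NALM6-only domains from 306 to 763 and REH-only domains from 394 to 1475.

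Promoter calls higher in NALM6 numbered 133 with equal numbers of peaks and 123 with equal called length, and those higher in REH 131 with equal called length. Features in at least 3 of 5 libraries admitted REH-only features but no NALM6-only ones, and 1145 promoters and 1040 domains were then higher in REH. Domain calls were 163 and 200 with equal called length and 119 and 142 with a width of 20 kb, where fewer domains were tested. Without 1 library, promoter calls ranged from 177 to 280 and 188 to 261, and domain calls from 286 to 483 and 340 to 567. With the maximum signal 19 of 450 promoter calls and 43 of 645 domain calls changed sign, among them SERPINA3 (log2 difference 0.0396), and 6 promoters and 15 domains were then called in the other direction. Where a cause is not named, it was not tested.

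The replicate block gave 209 and 241 promoter calls and 289 and 347 domain calls. Replicate numbers were not treated as pairs. The deviations of same-numbered libraries had correlations of 0.02 and 0.04. With 2 NALM6 libraries the deviations in that line mirror each other, so these values cannot exclude pairing. Depth and called length limit what a missing peak can show.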
